A study of Homo sapiens with 4 samples.

Results

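The GADD45 genes and p53 stress targets examined here were 9 genes, MDM2, GADD45A, GADD45B, GADD45G, SESN1, TP53INP1, BTG2, RRM2B and FDXR, out of 19775 genes named on the array. They were chosen by name, by a rule that sets no threshold on the measured values, and every probe set annotated to one of them was read. A probe set is a group of short array probes designed against a transcript. Of the 9 genes, 7 had at least 1 probe set and together had 21, and BTG2 and FDXR had none in the annotation used, so they were not analysed here.

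RNA was compared between U937-AE and U937-Mt cells, both derived from U937, a human myelomonocytic leukemia line, to find genes whose expression differs when AML1/ETO is present. U937-AE cells are 1 stably transfected clone that carries HA-tagged AML1/ETO, the fusion of the AML1 DNA-binding domain with ETO, behind the mouse metallothionein promoter, which zinc switches on. U937-Mt cells are a bulk population that carries the empty vector with the same promoter, and both lines received 100 µM ZnSO4 for 8 h, so the zinc was common to both and the induced protein cannot be told apart from the choice of the clone. For each line 3 RNA extractions were mixed into 1 pool, which was put on 2 copies of an Affymetrix expression array (HG-U133 Plus). The 4 arrays therefore hold 1 pool per line, the range over the 4 pairings of an array of one line with an array of the other covers only hybridization error, and no test between the lines was possible. In RNA from a bulk culture, fewer cells that express a gene and less of its RNA per cell cannot be told apart.

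The p53 protein is a transcription factor that is stabilized when DNA is damaged and then raises genes that stop the cell cycle, repair DNA or start apoptosis. MDM2 encodes the ubiquitin ligase that removes p53 and is itself a p53 target, which closes a feedback loop. The GADD45 genes encode small acidic stress proteins that bind kinases and cell cycle proteins, and other pathways, NF-kB and TGF-beta among them, also raise them, GADD45B in particular. U937 cells are known to lack functional p53 protein, so these genes are read here as stress-responsive genes and not as a report of p53 activity.

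Values are the deposited linear signals, in arbitrary units, on U937-AE arrays 1 and 2 and then on U937-Mt arrays 1 and 2. Signals below an array's median were raised to that median, called the floor, which lay at 119.5 and 129.7 for U937-AE, and for U937-Mt at 146.8 and 153.6. A probe set was called measured where its mean log2 signal reached the mean floor in at least 1 pool. It was called higher or lower where all 4 comparisons passed 1.5-fold in 1 direction. Among all 28882 measured probe sets 2.45% were called higher and 5.18% lower in U937-AE, with a median log2 difference of -0.09. Lower calls were thus 67.9% of all calls, a share that fell to 24.8% with the arrays at the same median and to 15.1% with them scaled to spike-in controls. Differences are U937-AE minus U937-Mt throughout, on the log2 scale of the floored signals, and a fold change is a lower bound where both arrays of the dimmer pool lay at their floors. Because the floors were higher for U937-Mt, a probe set at the floor on all 4 arrays reads -0.27.

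Of the 21 probe sets of these genes 12 were measured, from 5 genes. 1 of the 12 was called higher (8.33%), that of GADD45A, and 2 were called lower (16.7%), both of GADD45B, with 9 not called. The median log2 difference of the 12 was -0.25. The probe sets of 1 gene share their target, so the 12 are not 12 independent readings, and counts this small are given as a description beside the array-wide shares.

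The promoter windows of GADD45B and MDM2 are shown first, because they hold the motifs that were searched for in front of these genes. Windows of 250 bases before and 50 bases after an annotated start were taken from RefSeq on GRCh38.p14. Both strands were searched for the AML1 motif TGTGGT, for its variant TGCGGT and for a pair of adjacent p53 half-sites, with 2 mismatches allowed in the 20 bases outside the core C and G. That limit was set with the known MDM2 site in mind. The search covered 12 windows of 6 of the genes, which were BTG2, FDXR, GADD45B, GADD45G, MDM2 and SESN1. GADD45A had no window in the reference used, and windows of RRM2B and TP53INP1 were not searched. In the sequences below, 5′ to 3′ on the plus strand, capitals mark the match, which in the GADD45B window is the reverse complement of TGCGGT and in the MDM2 window the half-site pair.
GADD45B, chr19:2475877-2476176: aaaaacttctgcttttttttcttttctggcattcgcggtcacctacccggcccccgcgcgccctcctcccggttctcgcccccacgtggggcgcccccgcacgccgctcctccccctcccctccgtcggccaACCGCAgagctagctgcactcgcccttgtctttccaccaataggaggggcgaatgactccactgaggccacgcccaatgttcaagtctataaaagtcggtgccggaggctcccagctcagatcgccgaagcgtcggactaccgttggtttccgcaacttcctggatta
MDM2, chr12:68808767-68809066: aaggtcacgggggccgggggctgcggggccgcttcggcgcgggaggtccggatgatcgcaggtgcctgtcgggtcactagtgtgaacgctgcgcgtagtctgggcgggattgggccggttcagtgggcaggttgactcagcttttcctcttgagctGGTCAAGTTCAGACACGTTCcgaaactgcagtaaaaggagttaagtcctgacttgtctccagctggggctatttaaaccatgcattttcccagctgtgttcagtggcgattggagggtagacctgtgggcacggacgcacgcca

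None of the 12 windows searched held TGTGGT, which was present in 13.1% of the 35116 windows of all genes. TGCGGT was found in 7.29% of all windows. It began 118 bases before the GADD45B start and 171 bases before 1 of the SESN1 starts, at chr6:109008939-109009238. The p53 pair was found in 0.285% of all windows. Among the windows searched it began 94 bases before the annotated start in the MDM2 window shown. At the same site it began 101 bases before the annotated start in a second, overlapping window. The MDM2 windows further upstream, at chr12:68807922-68808221 and chr12:68807927-68808226, held no p53 pair. A match is a description of the letters in the window, and binding was not analysed here.

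GADD45A, a stress gene whose product binds the mitotic kinase CDK1 and the replication clamp PCNA, was the member called higher. Its single probe set, 203725_at, gave signals of 337.8 and 425.3 for U937-AE, and for U937-Mt 78 and 131. Both U937-AE arrays lay above every U937-Mt array, and both U937-Mt arrays were below their floors. The signal was therefore at least 2.52-fold higher in U937-AE, with log2 differences of 1.14 to 1.53 over the 4 comparisons of single arrays. The U937-AE copies differed by 1.26-fold from each other. Without a floor the log2 difference was 1.91 against 1.34 with it. With a floor at the 75th percentile of each array all 4 signals lay at the floor and the difference became -0.10, so that the call rests on signals between the median and the upper quartile of the arrays. GADD45A was called higher under 15 of 17 alternative settings, the other exception being the methods' t-test after Benjamini-Hochberg adjustment. Of the 17, the 4 that leave out 1 array and the mean of the pools repeat any call made by the main rule. The outcomes of these 4 and of the mean of the pools were therefore fixed in advance. The adjusted t-test called no probe set of the array, so it does not single out GADD45A.

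GADD45B, a member of the family that is induced early by inflammatory and TGF-beta signals and that acts on the p38 kinase cascade, ran the other way, and all 4 of its probe sets were measured. Probe set 209305_s_at gave 263 and 220.8 for U937-AE, and for U937-Mt 478.8 and 488.3. It was called lower, by 2.01-fold (1.82 to 2.21 over the 4 comparisons). The copies of each pool lay close together and the pools did not overlap. Probe set 209304_x_at gave 382.7 and 488.2 for U937-AE, and for U937-Mt 831.4 and 802.4. It was called lower by 1.89-fold (1.64 to 2.17). Both names carry a suffix that marks probes shared between transcripts, and the call of 209305_s_at was lost with the floor at the 75th percentile.

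The remaining GADD45B probe sets were also dimmer in U937-AE on every array but were not called. Probe set 207574_s_at gave 455.6 and 473 for U937-AE, and for U937-Mt 685.4 and 1007, a 1.79-fold difference with 1.45 to 2.21 over the comparisons. The U937-Mt copies were 1.47-fold apart, and the comparison of the second U937-AE array with the first U937-Mt array was the one short of 1.5-fold. Probe set 213560_at gave 62 and 47.1 for U937-AE, and for U937-Mt 143.1 and 164.8. Only 1 of these 4 signals exceeded its floor, which left a log2 difference of -0.32 with the floor and -1.51 without it, when it was called lower.

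The size of the GADD45B difference depended on how the arrays were scaled. Each array had been scaled to the same trimmed mean, while its median was higher on the U937-Mt arrays and its 18 hybridization spike-in probe sets were 1.27-fold brighter there. With the arrays set to the same median, the log2 differences of 207574_s_at, 209304_x_at and 209305_s_at were -0.57, -0.65 and -0.73. Scaled to the spike-ins they were -0.50, -0.57 and -0.66, and in neither case was a GADD45B probe set called lower. These scalings moved the median of all measured probe sets from -0.09 to 0.18 and 0.25, so that GADD45B stayed below that median in each. Only 213560_at changed sign, to 0.02 with the spike-ins. GADD45A was called higher under both scalings.

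GADD45G, the third gene of the family, was not measured. Its probe set 204121_at gave 79.5 and 70.7 for U937-AE, and for U937-Mt 23.5 and 46.4, all below the floors. The 3 GADD45 genes therefore gave a higher signal for GADD45A, a lower one for GADD45B and no reading for GADD45G, as the plot of signals shows.

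**Figure D1:**
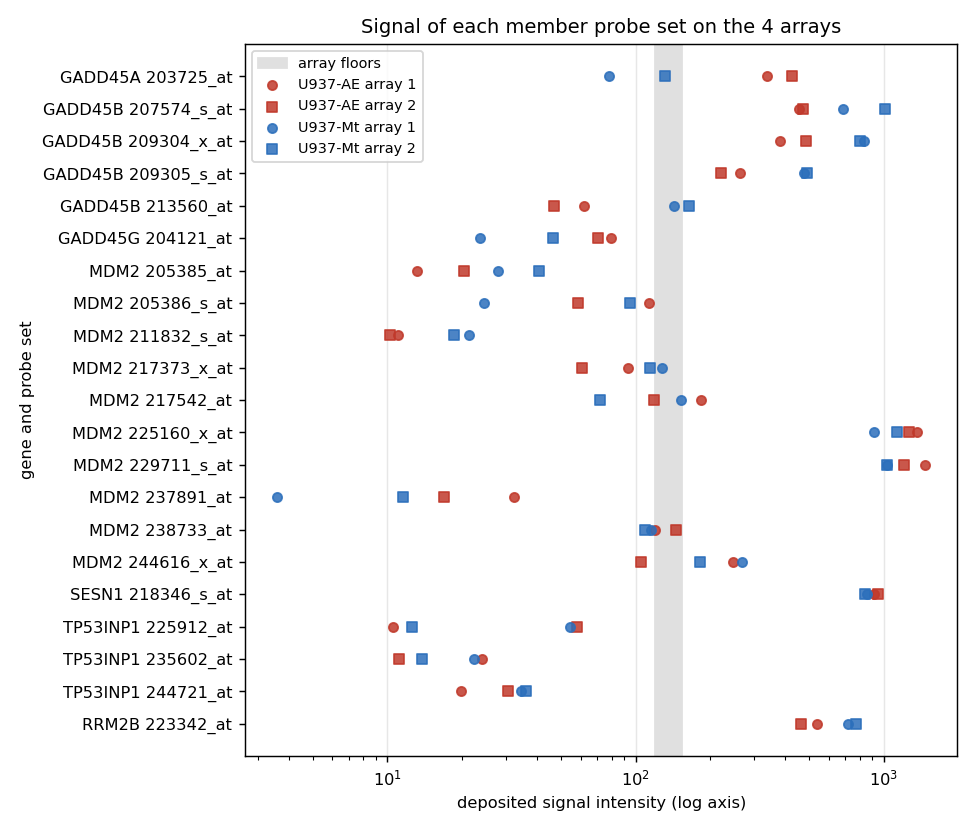
Deposited signal intensity (log axis) of the 21 probe sets on the 4 arrays, 1 point per array, with U937-AE in red and U937-Mt in blue; the grey band spans the 4 array floors, 119.5 to 153.6. GADD45A lies above the band in U937-AE only, 3 GADD45B probe sets lie above it in both lines with U937-Mt to the right, and GADD45G, TP53INP1 and 5 MDM2 probe sets lie below it or at its edge.

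MDM2, the p53 ubiquitin ligase, had 10 probe sets, of which 5 were measured and none was called. Probe set 225160_x_at gave 1364.2 and 1258.4 for U937-AE, and for U937-Mt 909.8 and 1131.6, a 1.29-fold higher signal and a log2 difference of 0.37, with 0.15 to 0.58 over the comparisons. Probe set 229711_s_at gave 1467 and 1208.5 for U937-AE, and for U937-Mt 1029.7 and 1026.9, also 1.29-fold, with 0.23 to 0.51 on the log2 scale. Both readings were higher in U937-AE on every array and short of the threshold in every comparison.

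The other 3 measured MDM2 probe sets had at least 1 array at its floor, and none was called. Probe set 217542_at gave 182.9 and 118.4 for U937-AE, and for U937-Mt 152.6 and 72.2, a log2 difference of 0.01. Probe set 238733_at gave 119.3 and 145.2 for U937-AE, and for U937-Mt 115.1 and 109.1, with -0.19. Without the floor the difference of 238733_at was 0.23 and both U937-AE signals lay above both U937-Mt signals, so its negative sign comes from the higher U937-Mt floors. Probe set 244616_x_at gave 247.1 and 105.4 for U937-AE, and for U937-Mt 268.7 and 181.1, and its 4 comparisons ran from -1.05 to 0.45. The U937-AE copies of 244616_x_at alone differed by 1.91-fold, more than the pools did. The 5 unmeasured MDM2 probe sets, 205385_at, 205386_s_at, 211832_s_at, 217373_x_at and 237891_at, had signals from 3.6 to 127.4, and none was above its floor on any array. Under the same-median scaling the differences of 225160_x_at and 229711_s_at were both 0.64, and under the spike-in scaling 0.71 and 0.72. No MDM2 probe set was called higher under any alternative. The unmeasured 211832_s_at was called lower without a floor, at -0.91.

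SESN1, a sestrin that restrains the growth kinase mTORC1 through the GATOR complexes, gave 915 and 950.8 for U937-AE, and for U937-Mt 857.4 and 841.4. The signal was 1.10-fold higher (1.07 to 1.13), the tightest range among the measured members, and was not called. RRM2B, the p53-inducible small chain of ribonucleotide reductase, gave 540.5 and 464.6 for U937-AE, and for U937-Mt 717.5 and 774.9. It was 1.49-fold lower, with 1.33 to 1.67 over the comparisons, and was not called. Its lower signal held on every array, and RRM2B was called lower only without the first U937-AE array, at a log2 difference of -0.68, while the spike-in scaling gave -0.23. TP53INP1, a nuclear protein that promotes p53 phosphorylation and autophagy, was not measured. Its 3 probe sets gave signals from 10.5 to 58.1, below the floors on all arrays.

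**Figure D2:**
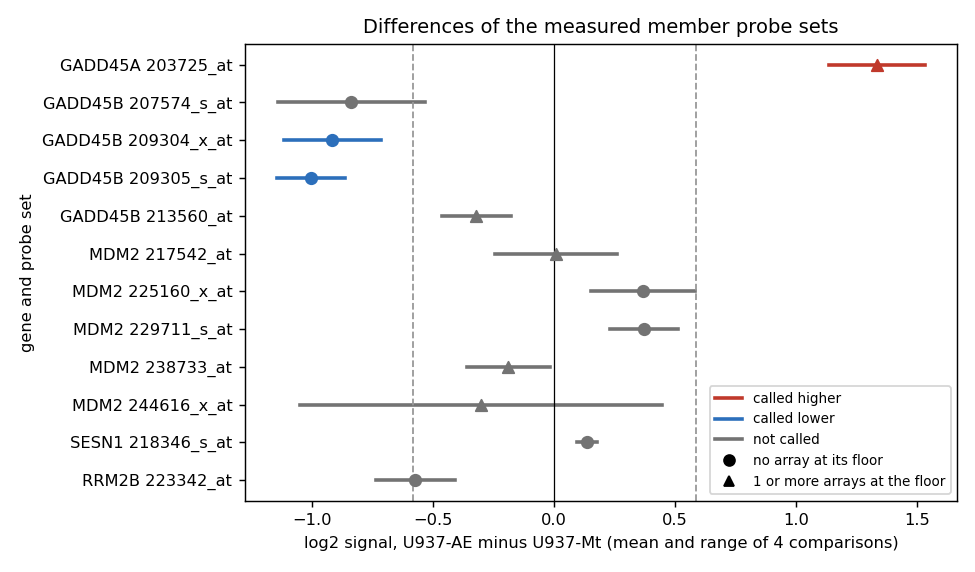
Log2 signal difference, U937-AE minus U937-Mt, of the 12 measured probe sets; the point is the mean of the 4 comparisons of single arrays, the bar their range, and the dashed lines mark 1.5-fold. The bar of GADD45A lies wholly beyond the right line, those of 209304_x_at and 209305_s_at wholly beyond the left line, and the other 9 bars cross or stay inside the lines.

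The patterns nearest to the called GADD45B probe sets were read by the distance between log2 signals centred on their own mean over the 4 arrays, among 18764 probe sets above the floor on every array. Those nearest to 209304_x_at were RBM26, ZNF740 and IL1B, at distances of 0.0409, 0.0632 and 0.067. Those nearest to 209305_s_at were IQGAP2, NCKAP5L and OR5L2, at 0.0361, 0.0519 and 0.0755. The closeness is over 4 arrays of 2 pools and thus mostly restates a similar difference between the pools. GADD45A could not be placed, because both U937-Mt arrays lay at the floor.

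A list of 49 other genes of the p53 pathway was read in the same way, and 44 of them had a probe set. Of 90 measured probe sets 7 were called higher (7.78%) and 5 lower (5.56%), with a median log2 difference of -0.01. The share called lower was near the 5.18% of the whole array, and the share called higher was above its 2.45%. The 7 came from 5 genes, and the list was chosen with earlier results of these data known. These shares are thus given as a description only. With the arrays at the same median 13 were called higher and 3 lower, the counts with the spike-in scaling were the same, and without the second U937-Mt array they were 11 and 8. The array-wide calls moved with them, from 707 higher and 1496 lower to 2023 and 667 at the same median, 2850 and 508 with the spike-ins and 1315 and 2915 without that array. The called probe sets came from 9 genes, and those of POLH ran in both directions. CDKN1A, the cyclin-dependent kinase inhibitor p21, was the gene of the list with the largest rise. Its probe set 202284_s_at gave 556.1 and 601.3 for U937-AE, and for U937-Mt 49.2 and 154.3. The first U937-Mt signal was raised to its floor and the second lay just above its own, so the 3.84-fold higher signal (3.60 to 4.10) and its narrow range were set mostly by the floors. Without a floor the log2 difference was 2.73 against 1.94 with it. CDKN1A was called higher under 15 of 17 alternatives, and the call was lost with the floor at the 75th percentile, as for GADD45A. The adjusted t-test was again the other exception, and the same settings as for GADD45A had outcomes fixed in advance.

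The cell cycle and apoptosis groups of the list held 6 of the 7 probe sets called higher, and 19 and 33 of the 90 measured. CCNG2, a cyclin that slows the cell cycle, was higher by 1.84-fold at both 202769_at (1714.6 and 1644.1 against 932.7 and 895.2) and 202770_s_at, and its other 3 probe sets were not called. PMAIP1, the BH3-only protein NOXA that blocks the survival protein MCL1, was higher at 204286_s_at by 2.03-fold (1.82 to 2.27) and at 204285_s_at by 1.78-fold. RPS27L, a ribosomal protein relative and p53 target, gave 1127.3 and 1039.9 for U937-AE, and for U937-Mt 351.7 and 402.4 at 222487_s_at. That is 2.88-fold higher (2.58 to 3.21), whereas its 2 other probe sets had log2 differences of 0.11 and 0.07 and were not called, so that its probe sets disagreed.

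The metabolism group held 2 of the 5 probe sets called lower, and 8 of the 90 measured. DDIT4, the hypoxia- and stress-induced inhibitor of mTORC1 also known as REDD1, gave 320.5 and 323.6 for U937-AE, and for U937-Mt 1665.1 and 1687.5. It was 5.21-fold lower (5.15 to 5.27) and was called lower under 16 of 17 alternatives, among them those that repeat any call. SESN2, the sestrin related to SESN1 that also restrains mTORC1, gave 622.5 and 531.3 for U937-AE, and for U937-Mt 1276.6 and 1382.4 at 223196_s_at. This was 2.31-fold lower (2.05 to 2.60), while 223195_s_at had a difference of -0.67 and was not called. SESN3, with 1 measured probe set, gave -0.42 and was not called, so that of the 3 sestrin genes SESN2 was the one with a called probe set.

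The rest of the calls rested on probe sets that disagreed within a gene. TNFRSF10B, the TRAIL receptor DR5, was 2.04-fold lower at 209294_x_at, 0.00 on the log2 scale at 209295_at and -0.53 at 210405_x_at, neither of these called. POLH, the translesion DNA polymerase eta, was 2.15-fold lower at 1557700_at and 1.81-fold higher at 222879_s_at, with 4 further probe sets not called. ATM, the kinase that signals DNA breaks, was 1.82-fold lower at 1553387_at and had a difference of -0.56, not called, at 1554631_at, while 208442_s_at, 210858_x_at and 212672_at had differences of 0.50, 0.42 and 0.29 and were not called. The lower call of ATM was lost under all 3 other scalings, that of POLH at the same median and that of TNFRSF10B with the spike-ins. ATM ranked ninth by size, outside the 8 genes that the rule names, and is named after its values were seen.

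**Figure D3:**
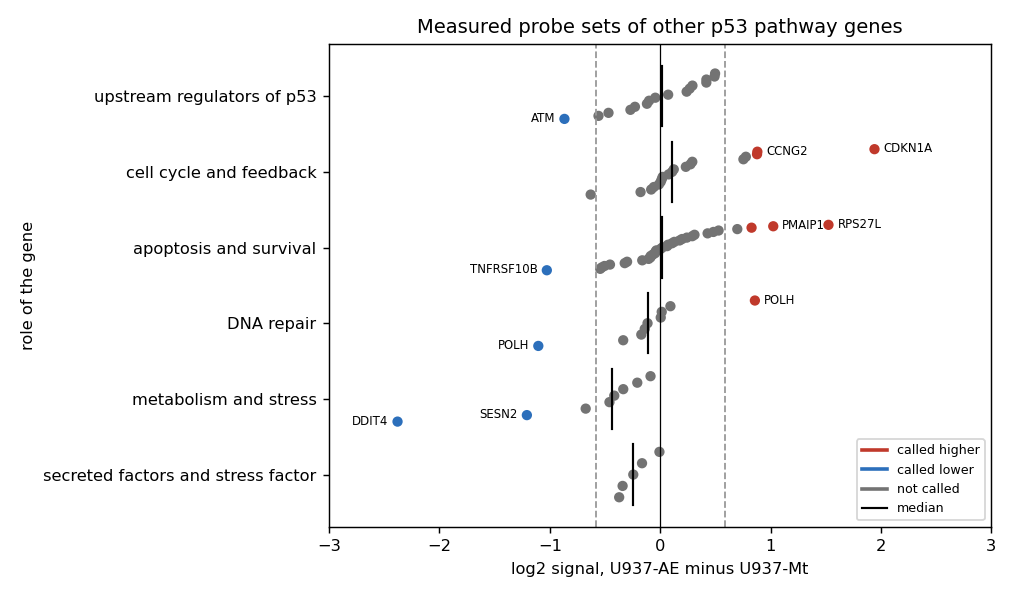
Log2 signal difference, U937-AE minus U937-Mt, of the 90 measured probe sets of other p53 pathway genes, 1 point per probe set grouped by role, with group medians as black ticks, dashed lines at 1.5-fold and each called gene labelled once per direction. CDKN1A (1.94) and DDIT4 (-2.38) are the extremes, and the 8 metabolism probe sets have the lowest median, -0.44.

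Direct partners and relatives of these genes were read from a list of 22 genes. Of 41 measured probe sets 3 were called higher (7.32%) and 0 lower, with a median of 0.19. None of the 10 measured probe sets of GADD45 partners was called, where 2.45% of all measured probe sets were called higher and 5.18% lower. Those of CDK1 and CCNB1, the kinase and cyclin that drive mitosis, all had positive differences. These reached 0.65 at CDK1 203214_x_at and 0.62 at CCNB1 228729_at. Both probe sets of the partner MAP3K4 had negative differences, of -0.29 and -0.28. RRM2, the small chain of ribonucleotide reductase used in S phase, gave 14587 and 14505 for U937-AE, and for U937-Mt 9563 and 8795.7 at 201890_at, a 1.59-fold higher signal (1.52 to 1.66). Its second probe set had a difference of 0.44 and was not called. Its stress-induced relative RRM2B had a lower signal in U937-AE, short of the threshold. FDX1, the ferredoxin that takes electrons from the reductase that FDXR encodes, was higher at 203646_at by 1.68-fold and at 203647_s_at by 1.83-fold, while 239161_at was not called.

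The labels and the state of the arrays were checked on other genes. RUNX1T1, which encodes ETO, gave 1361.5 and 1299 for U937-AE, and for U937-Mt 8.6 and 7.6 at 216831_s_at, so it was at least 8.86-fold higher, and its other 6 probe sets were not called. Among 17 probe sets of myelomonocytic markers 12 were measured. Of these 3 (25%), all of 1 gene, were called higher and 5 (41.7%), of 4 genes, were called lower in U937-AE. Among all measured probe sets the shares were 2.45% and 5.18%. The summed signal of the 17 was 22113.3 to 23240.9 in U937-AE and 43441.6 to 44924.3 in U937-Mt. Without MPO, whose probe sets were lower by 11.1- and 8.92-fold, it was 19540 to 20259.4 and 16911.3 to 17529.6. Such a sum weights the brightest probe sets most, so it is not a count of markers that rose. CD14 and FCGR1A, monocyte markers, were below the floors on every array, as were the T cell markers CD3D and CD3E and the epithelial markers EPCAM and KRT19. No marker of B cells, erythroid cells or fibroblasts was called. Whether the differences of myelomonocytic markers, which ran in both directions, have a part in those of GADD45A and GADD45B was not tested.

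The ratio of 3′ to 5′ signal, a measure of RNA integrity, was 1.05 to 1.12 for GAPDH on all arrays and for ACTB 1.21 and 1.25 for U937-AE, and for U937-Mt 1.43 and 1.33. Its part in the differences was not tested. Copies of the same pool differed by more than 1.5-fold at 8.34% of measured probe sets in U937-AE and at 10.1% in U937-Mt, and the correlation of log2 signals was 0.935 and 0.919 between copies and 0.910 to 0.916 across the lines.

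**Figure D4:**
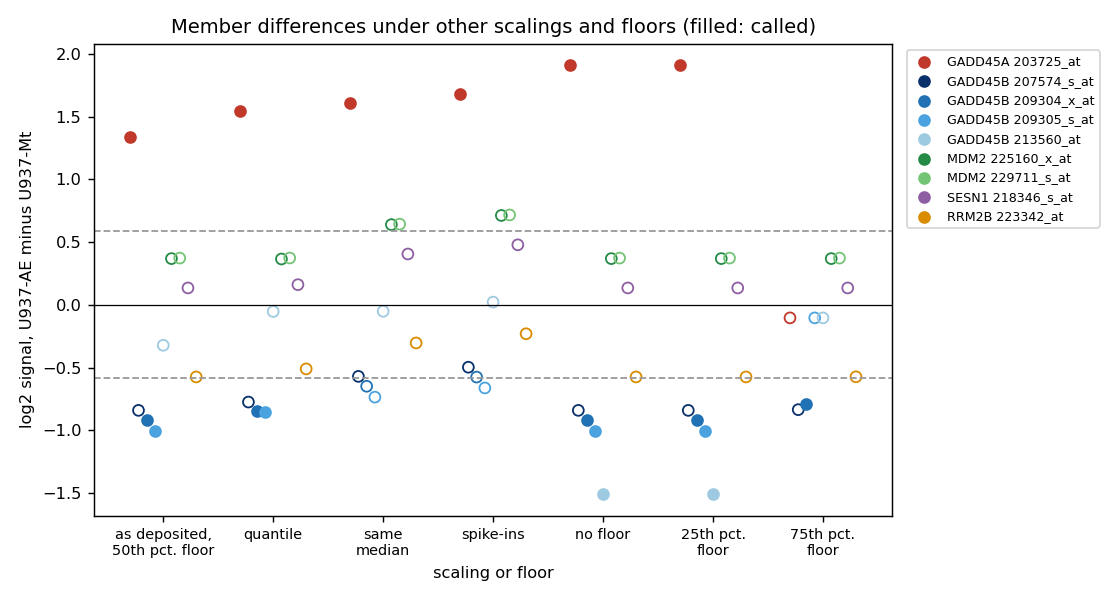
Log2 signal difference, U937-AE minus U937-Mt, of 9 probe sets of GADD45A, GADD45B, MDM2, SESN1 and RRM2B under 4 scalings (as deposited, quantile, same median, spike-ins) and 4 floors (50th percentile, none, 25th and 75th), with filled points called and dashed lines at 1.5-fold. GADD45A is filled in all columns except the 75th percentile floor, where it stands at -0.10, and GADD45B is open under the same-median and spike-in scalings.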

How the data were processed

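RNA pools of the U937-AE and the U937-Mt line were read on 4 Affymetrix HG-U133 Plus arrays, 2 copies of 1 pool per line. The authors deposited 1 linear signal intensity per probe set and array, computed with GCOS, per the submitters' processing notes (version not given in the sources used here), which scales each array to a common trimmed mean, here 500.1. The table holds 54675 probe sets, 62 of them controls. Of the total, 41097 have 1 gene symbol, 1801 have several and name no gene here (0 of these name a member), and 11777 are not named.

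From these intensities each array was floored at its 50th percentile over non-control probe sets and log2 was taken. A probe set was called where all 4 comparisons of single arrays exceeded 1.5-fold in 1 direction, after the cutoff in the study's methods. As alternatives limma and the methods' t-test were run on the floored signals, whose p-values set a difference only against the spread of array copies of a pool. For a probe set at the floor on every array that difference is the offset between the floors. The other alternatives were quantile, same-median and spike-in scaling, other floors, a 2-fold threshold, the mean of the pools, the brightest or mean probe set of a gene, and 1 array left out at a time.

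The members, lists and rules were chosen with earlier results of these data known. The rule names every member probe set, RUNX1T1 and CDKN1A, up to 8 genes of each list with a called probe set, by size of the difference, and the 3 probe sets nearest to each called member probe set above the floor on all arrays. The number of arrays limits the precision. BTG2, FDXR, 5 genes of the p53 pathway list and 1 of the partner list have no probe set in the annotation used and were not analysed here, and some items are not reported. Promoters are from RefSeq on GRCh38.p14. The tools were limma 3.58.1 in R 4.3.3, and pandas 2.3.3, matplotlib 3.10.9, scipy 1.17.1 and numpy 2.4.6 in Python 3.11.15.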

Additional observations from a re-analysis of the deposited data

How the results depend on the processing

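The counts of probe sets called are given as higher and then lower in U937-AE, first for the member genes, then for the p53 pathway list, then for all probe sets, where as reported they were 1 and 2, 7 and 5, and 707 and 1496. With the arrays at the same median they were 1 and 0, 13 and 3, and 2023 and 667, and scaled to the spike-ins 1 and 0, 13 and 3, and 2850 and 508. Of all calls 67.9% were lower as reported, 52.3% after quantile normalization, 24.8% at the same median and 15.1% with the spike-ins. Without a floor the counts were 2 and 4, 7 and 12, and 1744 and 4809, with a floor at the 25th percentile 1 and 3, 7 and 11, and 1172 and 3216, and at the 75th percentile 0 and 1, 5 and 2, and 415 and 552. There GADD45A 203725_at reversed to -0.10, because all 4 signals were at the floor, the only called value to change sign among 231 values of single probe sets. Values that were not called as reported also changed sign. Without a floor GADD45G 204121_at went from -0.27 to 1.18 and was called higher there. MDM2 237891_at went from -0.27 to 1.86 and was not called. A 2-fold threshold gave 1 and 0, 2 and 2, and 191 and 447, and the mean of the pools 1 and 3, 10 and 7, and 1468 and 3717. Under the methods' t-test and more than 2-fold the counts were 1 and 1, 3 and 4, and 271 and 669, and after Benjamini-Hochberg adjustment 0 of each, where 940 probe sets had an unadjusted p under 0.05 and a fold above 2. Leaving out each array in turn gave 1 and 2 to 3 member probe sets, 7 to 11 and 6 to 8 of the pathway list, and 1057 to 1315 and 2256 to 3378 of all. A call made on all arrays is always kept in these settings, so their counts can only stay or rise. Leaving out names that end in _x_at or _s_at, whose probes can match several transcripts, 1 and 0 member probe sets were called, so that both GADD45B calls rest on such probe sets. With the brightest probe set per gene 1 and 0 member genes were called, against 1 and 1 as reported.

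The array numbers were shared between the lines. The deviations of same-numbered arrays correlated at 0.0517 over all non-control probe sets, those at the floor included. Whether same-numbered arrays share more than a number was not tested. With the replicate block, limma called 1 and 3 member probe sets, 10 and 7 of the pathway list, and 1457 and 3692 of all, and without the block 1 and 3, 8 and 7, and 1193 and 2494. The limits are those of 1 pool per line, of signals near the floor for GADD45A, GADD45G, TP53INP1 and most MDM2 probe sets, and of a scale that the deposited values fix only up to the choice of reference.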
